A study of Mus musculus with 9 samples.

Results

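Zinc is stored at high concentration in the insulin granules of pancreatic islets, and 10 genes that move, release or bind it are described here. They were taken by symbol from the 24393 genes of the count table that carry a gene symbol, and all 10 were found and passed the filter on low counts. They are Slc30a8, Slc30a1, Slc30a5 and Slc30a7 (zinc exporters of the Slc30 family), Slc39a6, Slc39a7, Slc39a10 and Slc39a14 (zinc importers of the Slc39 family) and the metallothioneins Mt1 and Mt2. The libraries came from islets of female mice, cultured overnight after isolation. The 4 knockout (KO) libraries had the genotype Rip-cre; Ogt f/f, in which an insulin promoter drives Cre and deletes floxed Ogt, the O-GlcNAc transferase gene, in beta cells. The 5 control libraries (WT) had no Cre: WT replicates 1 and 3 were Ogt f/+, and WT replicates 2, 4 and 5 were Ogt f/f. No group here carries Rip-cre without floxed Ogt, so effects of the transgene and of the deletion cannot be told apart. Run 1 held 3 WT and 2 KO libraries and run 3, which the labels also call the 2nd run, held 2 WT and 2 KO libraries. The labels give no age. The labels do not state whether each library is a separate animal. The p-values therefore rest on library-to-library spread, and part of that spread may be technical.

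Slc30 proteins carry zinc out of the cytosol, into organelles or out of the cell, and Slc39 proteins carry it into the cytosol. In beta cells the granule transporter encoded by Slc30a8 (ZnT8) loads the zinc with which insulin crystallises. Metallothioneins are small cysteine-rich proteins that buffer zinc and copper. When cytosolic zinc rises, the metal-sensing transcription factor encoded by Mtf1 binds metal response elements and induces Mt1, Mt2 and the exporter gene Slc30a1, and Slc39a10 is repressed. Glucocorticoids and oxidative stress also induce the metallothioneins.

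Libraries held 3796043 to 4462754 counts in run 1 and 5150443 to 6073537 in run 3. Single members had between 46 (Slc39a10) and 4848 (Mt1) counts per library, so counting error is largest for Slc39a10 and Slc39a14. Levels are given as CPM, counts relative to the library size after scaling by TMM. Ogt, the check of the labels, stood at 54.1 to 83.0 CPM in WT and at 23.7 to 39.3 CPM in KO libraries. The islet hormones were abundant, with means of 47410 (WT) and 40054 (KO) CPM for insulin (Ins2) and of 29978 (WT) and 35744 (KO) CPM for glucagon (Gcg). The ribosomal RNA precursor took 9.64% to 28.6% of counts.

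The promoters of the metallothioneins and of Slc30a1 are shown first, because these genes share regulation by the Mtf1 protein and because Mt1 and Mt2 varied together. They are RefSeq sequences on GRCm38.p6, from 250 bases before to 50 bases after the annotated start, and all 3 genes lie on the plus strand. The metal response element core was searched as TGCACNC and TGCGCNC on both strands, and matches are in capitals.
Mt1 (chr8:94178839-94179138): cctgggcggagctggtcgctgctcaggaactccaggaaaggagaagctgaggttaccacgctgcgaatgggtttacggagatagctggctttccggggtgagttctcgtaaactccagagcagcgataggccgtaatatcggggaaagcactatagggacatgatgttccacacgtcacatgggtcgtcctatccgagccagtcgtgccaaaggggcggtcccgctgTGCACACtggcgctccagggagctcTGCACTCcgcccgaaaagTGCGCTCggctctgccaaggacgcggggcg
Mt2 (chr8:94172368-94172667): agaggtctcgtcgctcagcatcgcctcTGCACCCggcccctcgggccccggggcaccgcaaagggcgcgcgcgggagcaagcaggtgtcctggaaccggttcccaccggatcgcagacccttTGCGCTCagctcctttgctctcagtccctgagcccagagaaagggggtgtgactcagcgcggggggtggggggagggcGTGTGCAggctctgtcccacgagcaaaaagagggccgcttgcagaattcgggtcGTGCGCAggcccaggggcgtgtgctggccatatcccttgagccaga
Slc30a1 (chr1:191906531-191906830): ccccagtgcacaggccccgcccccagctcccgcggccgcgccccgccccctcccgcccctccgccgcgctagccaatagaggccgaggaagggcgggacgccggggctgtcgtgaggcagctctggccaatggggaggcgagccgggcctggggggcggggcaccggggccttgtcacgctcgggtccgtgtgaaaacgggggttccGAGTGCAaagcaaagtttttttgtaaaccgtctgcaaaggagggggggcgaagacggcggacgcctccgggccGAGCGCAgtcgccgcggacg
The Mt1 window holds 3 matches, that of Mt2 holds 4 and that of Slc30a1 holds 2. At least 1 match was found in 25.7% of 32851 promoters of the same length, and at least 3 in 1.97%. A match describes the letters and does not show binding. RefSeq promoters were found for 7 of the 10 genes, and those of Slc30a8, Slc39a6 and Slc39a14 are not shown. In the other members the window of Slc30a5 held 1 match, and those of Slc30a7, Slc39a7 and Slc39a10 (with 2 annotated starts) held 0. Mt2 (chromosome 8, 94172664 to 94173568) and Mt1 (94179082 to 94180327, both GRCm38) are neighbours with 5513 bases between them. They are related in sequence, and the labels do not say how the authors counted reads that match several places. Their separate values are therefore uncertain. Gm45774 overlaps Mt2 on the opposite strand.

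Per transcript length, the metallothioneins were the most abundant members and the granule transporter the next. In the authors' FPKM values (fragments per kilobase of transcript and per total mapped fragments), Mt1 averaged 1574 ± 1140 (SD, n = 5) in WT and Mt2 averaged 599 ± 489 FPKM. Slc30a8 followed at 180.4 ± 58.4 FPKM and Slc39a7, which releases zinc from the endoplasmic reticulum, at 62.2 ± 2.30 FPKM. Slc39a6, an importer of the cell surface, stood at 18.4 ± 2.91 FPKM. Slc30a5, an exporter into the early secretory pathway, stood at 16.5 ± 4.75 FPKM. Slc30a1, the exporter of the plasma membrane, was at 8.62 ± 1.49 FPKM and Slc30a7, a Golgi exporter, at 5.91 ± 0.80 FPKM. Slc39a10, a surface importer related to Slc39a6, and Slc39a14, which also carries iron, were lowest at 4.70 ± 1.86 and 3.70 ± 0.68 FPKM. The KO means over both runs had the same order, but the order differed by run. In run 3 the WT mean of Slc30a8 (242 FPKM) was above that of Mt2 (224 FPKM), and that of Slc30a5 (21.6 FPKM) above that of Slc39a6 (17.6 FPKM). The KO mean of Slc30a7 (7.33 FPKM) was above that of Slc30a1 (7.07 FPKM) in the same run. Some neighbours did not separate in WT: Slc39a6 exceeded Slc30a5 in 3 of 5 libraries, Slc39a10 exceeded Slc39a14 in 3 of 5, and Mt2 exceeded Slc30a8 in 4 of 5. Every other member exceeded the next in 5 of 5 WT libraries.

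**Figure D1:**
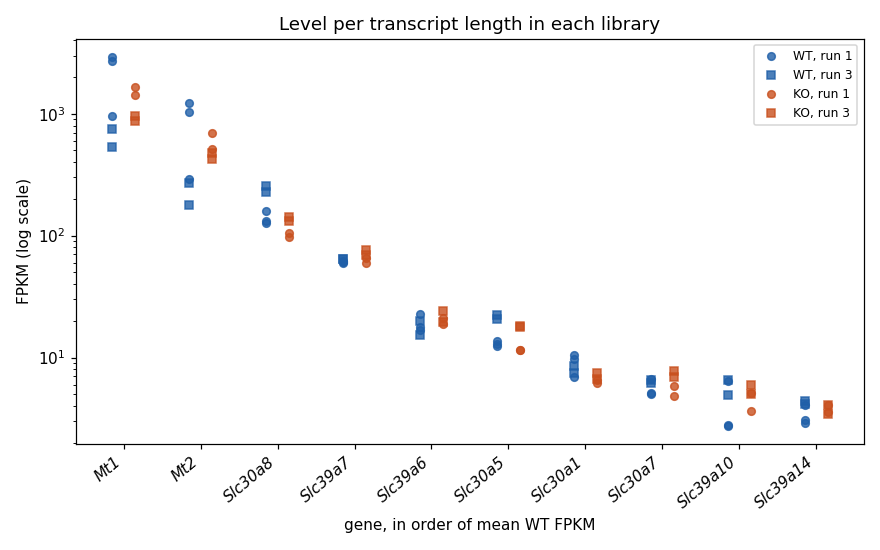
Level of each member in FPKM on a log axis, with genes in order of their mean in WT and 1 point per library (blue WT, orange KO, circles run 1, squares run 3). Mt1 spans 538 to 2903 FPKM over all libraries, while Slc39a7 stays between 59.1 and 75.5 FPKM.

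Of the 10 members, 1 fell, 0 rose and 9 were not called in KO against WT over both runs, and the gene that fell was Slc30a8. The test was edgeR's quasi-likelihood test with the run as a term, and a call needed an adjusted p (Benjamini-Hochberg) under 0.05. It called 18.5% of all 12501 tested genes, 9.56% higher and 8.96% lower, so 1 of 10 members lower is near the share of genes in general. The members' median log2 fold change was 0.05, against 0.02 over all tested genes. DESeq2 also called 1 member lower and 0 higher. It called 2244 of the same tested genes in either direction, against 2315 in edgeR. In 3 of the 10, Slc30a8, Slc30a1 and Slc30a5, every KO library lay below every WT library in both runs, and 22.9% of tested genes were separated to the same side in both runs. Within run 1 the genotypes separated in 3 of 10 members (40.7% of tested genes), and within run 3 in 8 of 10 (51.8% of tested genes).

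Slc30a8 (chromosome 15, 52295553 to 52335798, plus strand, GRCm38), the zinc transporter of insulin granules, was lower in KO islets. It stood at 277.0, 294 and 360.0 CPM in the WT libraries of run 1 and at 213 and 239 CPM in the KO libraries. In run 3 it stood at 489 and 447 CPM in WT and at 275 and 258 CPM in KO. All 4 KO libraries were below all 5 WT libraries, also across runs, with the highest KO value of run 3 just under the lowest WT value of run 1. WT libraries averaged 373 ± 92.9 CPM (SD, n = 5), and KO libraries averaged 246 ± 26.7 CPM (SD, n = 4). In the fit KO islets held 0.649 of the WT level, a log2 fold change of −0.62 ± 0.10 (SE; edgeR adjusted p = 0.000457). An exact two-sided permutation test within runs gave p = 0.0167, the smallest that 60 arrangements can give. Leaving out single libraries moved the log2 fold change between −0.70 and −0.57 and kept the call. Only the fit without the run term lost it (−0.60, adjusted p = 0.0751), among 24 alternatives.

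Within runs, Slc30a8 had a log2 fold change of −0.48 ± 0.14 (SE) in run 1 (edgeR adjusted p = 0.0689) and of −0.82 ± 0.10 in run 3 (adjusted p = 4.4e-05). DESeq2 called it in run 1 (adjusted p = 0.0409). The difference between the runs was −0.35 ± 0.18 (SE), with an adjusted p of 0.827 in the interaction test. Slc30a8 was also higher in run 3 than in run 1, by 0.43 on the log2 scale (adjusted p = 0.0027), as 15.1% of tested genes were.

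Because islets are a mixture, fewer beta cells and less Slc30a8 RNA per cell cannot be told apart in these libraries. Of 10 beta cell markers, 5 fell, 0 rose and 5 were not called, against 8.96% of all tested genes called lower. The summed level of the beta markers was 63790 to 110021 CPM in WT and 55670 to 82906 CPM in KO in run 1. In run 3 it was 47547 to 54087 CPM in WT and 42604 to 46449 CPM in KO. No beta marker was at 0 in every library, and the sum is mostly Ins2, Iapp and Ins1, of which only Iapp was called. Alpha cells also express Slc30a8. Their 9 markers summed to 29329 to 39213 CPM in WT and 33553 to 64946 CPM in KO in run 1, and to 21560 to 28578 and 24511 to 25702 CPM in run 3. With the alpha marker level as a covariate, an alternative chosen after the data were seen, Slc30a8 kept a log2 fold change of −0.65 (adjusted p = 0.00112). The summed level of markers of delta and PP cells was higher in KO in both runs. Their 6 genes summed to 3028 to 4028 CPM in WT and 5306 to 5510 CPM in KO in run 1, and to 2986 to 3053 and 3907 to 4803 CPM in run 3, with no overlap within either run. In the fit over both runs all 6 had positive fold changes. Of them 2 rose, Rbp4 (1.31, adjusted p = 8.28e-06) and Pyy (0.80, adjusted p = 3.58e-05), named after their values were seen. Single genes were less uniform within runs. Sst, Ppy, Hhex and Ghsr overlapped between the genotypes in run 1. Hhex and Ghsr also overlapped in run 3, where Ghsr had a log2 fold change of −0.08. None of the 6 was at 0 in every library. The part of the beta, delta and PP marker levels in the result was not tested.

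Genes for other proteins of the same granules were called only lower, and fewer than those not called. Of 15 genes for insulin, amylin, prohormone processing, granins and granule membrane proteins, 6 fell, 0 rose and 9 were not called. Their median log2 fold change was −0.16, and 8.96% of all tested genes were called lower. Iapp, the amyloid peptide co-secreted with insulin, fell by 0.61 and Pcsk1, a prohormone convertase, fell by 0.79 (edgeR adjusted p = 0.000378 and 0.000803). Vgf, a granin-like precursor, fell by 0.98, and Cpe, the carboxypeptidase that trims insulin, fell by 0.30. The calls of Iapp (−0.62) and Cpe (−0.31) were lost on FPKM values with each of 3 settings at fold changes close to those above. Those of Iapp (−0.64), Vgf (−1.15) and Cpe (−0.33) were lost without the run term, and that of Cpe without KO replicate 3 (−0.27, adjusted p = 0.0613). The insulin genes, which are similar in sequence, were not called (Ins1 0.19, Ins2 −0.16).

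Among the other exporters no member passed the test. Slc30a1 (chromosome 1, 191906767 to 191913247, plus strand, GRCm38) stood at 48.9, 53.1 and 34.8 CPM in WT and 31.5 and 33.6 CPM in KO in run 1, and at 37.6 and 33.5 against 32.9 and 28.9 CPM in run 3. KO libraries were the lower ones in each run, with WT replicate 3 close to them. Its log2 fold change of −0.35 ± 0.13 (SE) had an edgeR adjusted p of 0.0777, and the exact permutation test gave p = 0.05. Without WT replicate 3 it was called (−0.42, adjusted p = 0.0285). An antisense gene, 1700034H15Rik, overlaps Slc30a1, and the labels do not say whether the counting used strand.

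Slc30a5 (chromosome 13, 100802648 to 100833427, minus strand, GRCm38) was at 43.5, 44.4 and 48.0 CPM in WT and 40.8 and 41.4 CPM in KO in run 1. In run 3 it was at 67.0 and 62.9 CPM in WT and 56.5 and 54.9 CPM in KO. The KO libraries lay below the WT libraries of their run by a small margin. The log2 fold change was −0.18 ± 0.09 (SE), not called in edgeR (adjusted p = 0.172), with an exact permutation p = 0.0333. The gap between runs was larger than that between genotypes: Slc30a5 was higher in run 3 by 0.48 on the log2 scale (adjusted p = 0.000601). Slc30a7 (chromosome 3, 115938973 to 116007406, minus strand) ranged from 49.2 to 64.9 CPM in WT and from 48.9 to 68.8 CPM in KO, with a log2 fold change of 0.08 ± 0.11 (SE, adjusted p = 0.67). Its groups overlapped in run 1, while both KO libraries were higher in run 3.

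The 4 importers had positive log2 fold changes, none of them called. Slc39a7 (chromosome 17, 34028269 to 34031682, minus strand) stood at 138 to 149 CPM in WT and at 142 to 171 CPM in KO (log2 fold change 0.14 ± 0.08 SE, edgeR adjusted p = 0.231). Its annotation overlaps the gene model Gm20427 on the same strand. Slc39a6 ranged from 53.6 to 93.2 CPM in WT and 69.7 to 87.6 CPM in KO (0.19 ± 0.12, adjusted p = 0.28). It overlaps Elp2 on the opposite strand, so its counts may hold reads of that gene. Slc39a10 (chromosome 1, 46807544 to 46892852, minus strand) ranged from 14.9 to 35.1 CPM in WT and from 20.4 to 29.9 CPM in KO (0.07 ± 0.21, adjusted p = 0.858). Slc39a14 (chromosome 14, 70303469 to 70351425, minus strand) ranged from 15.4 to 21.4 CPM in WT and from 16.9 to 21.9 CPM in KO (0.04 ± 0.15, adjusted p = 0.881). The gene models Gm28151 and Gm37393 overlap Slc39a10 on its own strand. KO and WT overlapped in run 1 for all 4 importers. In run 3 KO was above WT for Slc39a7 and below it for Slc39a14, and the other importers overlapped. The sign of Slc39a10 and Slc39a14 changed with single libraries left out.

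**Figure D2:**
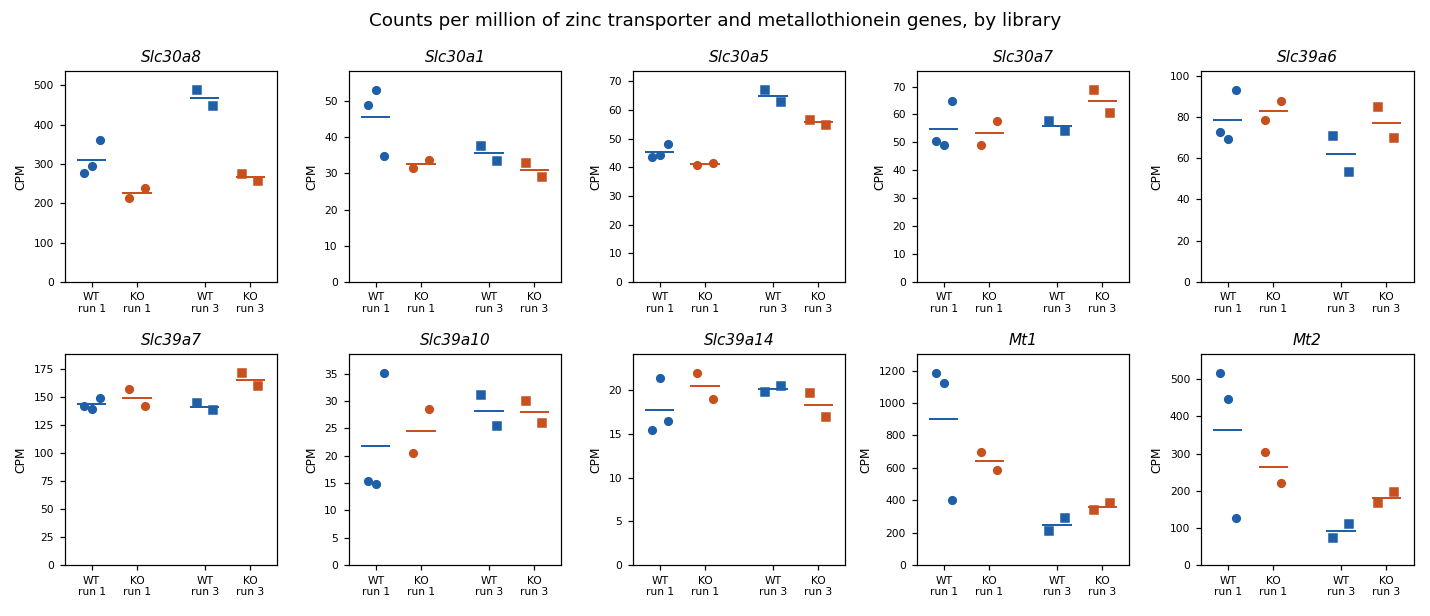
CPM of each member in every library, with 1 panel per gene, separate axes from 0, bars at group means, circles for run 1 and squares for run 3. KO (orange) lies below WT (blue) in both runs for Slc30a8, Slc30a1 and Slc30a5, and WT replicate 3 of run 1 stands at 400.3 CPM for Mt1, under the other WT libraries of its run.

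The metallothioneins had fold changes of opposite sign in the runs, and no call was made over both. In run 1 Mt1 stood at 1184, 1122 and 400.3 CPM in WT replicates 1, 2 and 3 and at 699 and 588 CPM in KO replicates 1 and 2. In run 3 it stood at 209 and 289.9 CPM in WT and at 337 and 380.2 CPM in KO. The KO values of run 1 thus lay between the WT values, and those of run 3 above them. Mt2 showed the same layout, at 516, 447 and 125 CPM in WT and 305 and 222 CPM in KO in run 1. In run 3 Mt2 stood at 73.0 and 109 CPM in WT and at 168 and 195 CPM in KO.

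Over both runs the log2 fold change was −0.02 ± 0.26 (SE) for Mt1 (edgeR adjusted p = 0.958) and 0.20 ± 0.34 for Mt2 (adjusted p = 0.728). These standard errors exceed that of Slc30a8 (0.10), so the test could resolve less for the metallothioneins. Within run 3 both metallothioneins rose, Mt1 by 0.52 ± 0.12 (SE, adjusted p = 0.0153) and Mt2 by 0.99 ± 0.14 (adjusted p = 0.000373). With Slc30a8, which fell there, 3 of 10 members were called in run 3, 2 higher and 1 lower, against 8.17% of all tested genes (3.93% higher, 4.24% lower). The call of Mt1 in run 3 was lost without WT replicate 4 (0.31, adjusted p = 0.0967) or without KO replicate 4 (0.43, adjusted p = 0.165), while that of Mt2 was kept without each library in turn. Each omission in run 3 leaves a genotype with 1 library, assumed to vary like the other group, so these values are a weak check.

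Within run 1 edgeR called 0 of 10 members, against 6.05% of tested genes (3.13% higher, 2.92% lower). DESeq2 called 1, Slc30a8, and in edgeR 2 had an unadjusted p under 0.05 (Slc30a8 and Slc30a1). The share of all tested genes by either measure was not counted for run 1, so these member counts lack that comparison. Mt1 and Mt2 had log2 fold changes of −0.50 ± 0.35 (SE) and −0.47 ± 0.43 there. WT replicate 3 decided this: without it both were called lower, at −0.86 (adjusted p = 0.00349) and −0.89 (adjusted p = 0.00868). The difference between the runs was 1.01 ± 0.46 (SE) for Mt1 and 1.45 ± 0.57 for Mt2, with unadjusted p of 0.0445 and 0.0229 in edgeR and adjusted p of 0.824 and 0.795. That interaction test called 0% of tested genes (0 genes, with 744 at an unadjusted p under 0.05, against 1 called by DESeq2 and 0 by limma-voom). Without WT replicate 3, 6 genes were called, Mt1 (1.37, adjusted p = 0.0138) and Mt2 (1.87, adjusted p = 0.00679) among them. That omission was chosen after the data were seen and was the only one tried in the interaction test. WT replicate 3 was the lowest library of run 1 in both genes, so these calls are no independent support for a difference.

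**Figure D3:**
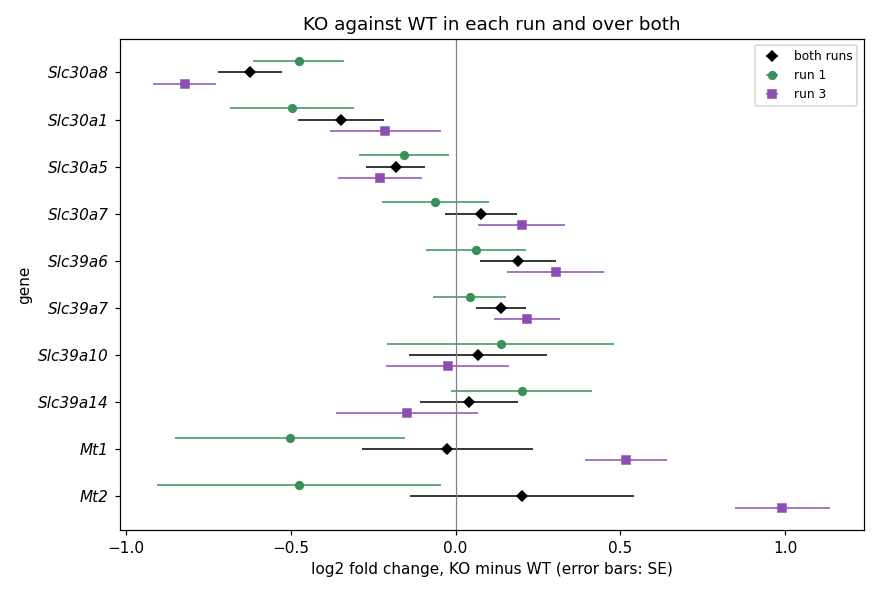
Log2 fold change of KO minus WT for each member over both runs (black diamonds), within run 1 (green circles) and within run 3 (purple squares), with standard errors as bars. Slc30a8 is negative in each, while Mt1 and Mt2 are negative in run 1 (−0.50 and −0.47) and positive in run 3 (0.52 and 0.99).

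The metallothioneins differed more between the runs than between the genotypes. Mt1 was lower in run 3 than in run 1 by 1.39 ± 0.27 on the log2 scale (SE) and Mt2 by 1.31 ± 0.35 (edgeR adjusted p = 0.000972 and 0.00939), in a comparison that called 31.4% of tested genes, 15.1% higher and 16.3% lower. Of the members, 2 were called higher in run 3 (Slc30a8 and Slc30a5) and 2 lower. Both Ogt f/+ controls were in run 1, beside 1 Ogt f/f control, so control genotypes could be set against each other only through WT replicate 2 and the run term. That contrast called 0 members (0 at an unadjusted p under 0.05) and 0% of tested genes in edgeR, which at this size says nothing about the control genotype. In it Ogt itself was at −0.54 in f/f against f/+ (unadjusted p = 0.00783, adjusted p = 1). WT replicates 1 and 3, far apart in Mt1, were both Ogt f/+.

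Markers of other cells differed in the same libraries. The 12 acinar markers summed to 1967, 5084 and 3901 CPM in WT replicates 1 to 3 and to 1710 and 331 CPM in KO replicates 1 and 2, against 60.6 to 189 CPM in run 3. None of the 12 was at 0 in every library. With the acinar level as a covariate Mt1 stood at 0.12 (adjusted p = 0.837) and Mt2 at 0.40 (adjusted p = 0.527), and with the alpha level, added after the data were seen, Mt2 stood at 0.39 (adjusted p = 0.518). The 7 fibroblast markers summed to 158, 211 and 85.8 CPM in WT replicates 1 to 3 and to 307 and 181 CPM in KO replicates 1 and 2. In run 3 they summed to 489 and 696 CPM in WT and to 849 and 778 CPM in KO, above WT in that run. None of the fibroblast markers was at 0 in every library, and all 6 that were tested had positive fold changes and were called higher in run 3 than in run 1. Over both runs 1 of them rose, Pdgfrb (0.54, adjusted p = 0.00639), and within run 3 Col1a1 rose (0.53, adjusted p = 0.00531). Both were named after their values were seen. The 7 endothelial markers summed to 196, 197 and 353 CPM in WT and to 240.1 and 473 CPM in KO in run 1, and to 112 to 147 CPM in run 3. WT replicate 3 also had the highest summed beta marker level, 110021 CPM. Beyond these covariates, the part of the markers in the metallothionein values was not tested.

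Mt1 and Mt2 varied together over the libraries, and Slc39a10 ran against them. With log2 CPM centred on the run mean, Pearson's r of Mt1 and Mt2 over 9 libraries was 0.979 (Spearman's rho 0.983), and 0.954 without the libraries farthest from the median of Mt1, WT replicates 3 and 1. The ratio of Mt1 to Mt2 counts lay between 2.29 and 3.19 in WT and between 1.95 and 2.65 in KO, a log2 difference of −0.27 that an exact permutation test did not separate (p = 0.133). The ratios overlapped in run 1, and in run 3 both KO ratios (2.01 and 1.95) were below both WT ratios (2.86 and 2.65). For Mt1 and Slc39a10 r was −0.913 (rho −0.883), and −0.793 without the same libraries. Centred within run and genotype it was −0.978. The WT libraries of run 1, the most spread in Mt1, weigh most in that value, and no library was left out for it. WT replicate 3, the lowest of run 1 in Mt1, was the highest in Slc39a10, at 35.1 CPM against 15.4 and 14.9 CPM. For Mt1 and Slc30a1 r was 0.524, 0.328 without these libraries and 0.751 when centred within run and genotype, so its size depends on the libraries and the centring used. These values describe 45 pairs of members that share libraries and depth, and they carry no test.

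By the same measure, the genes most like Mt1 among 7374 others were Mt2, Txndc12, a thioredoxin of the endoplasmic reticulum, Uap1l1 and Fmn1 (r 0.979 to 0.935). Those most like Slc30a8 were Lifr, the receptor of leukemia inhibitory factor, Mia3, a cargo receptor of the secretory pathway, Slc30a5 and Slc44a3 (r 0.991 to 0.977). KO and WT libraries separate within each run for Slc30a8 and Slc30a5, so part of their r is the genotype difference. Lifr (−0.52) and Slc44a3 (−0.60) were called lower in KO (edgeR adjusted p = 0.00287 and 0.00492). Mia3 (−0.16, adjusted p = 0.129) and Slc30a5 were not called. Centred within run and genotype, r of Slc30a8 and Slc30a5 was 0.942, a value for which no library was left out.

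**Figure D4:**
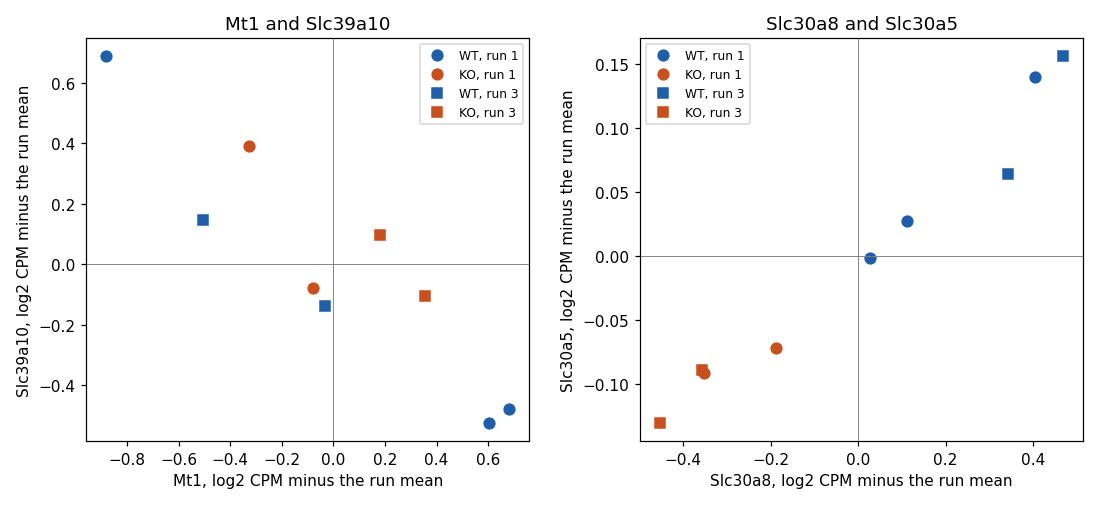
Run-centred log2 CPM of Slc39a10 against Mt1 (left) and of Slc30a5 against Slc30a8 (right), with 1 point per library (blue WT, orange KO, circles run 1, squares run 3). On the left WT libraries of run 1 lie at both ends (r = −0.913), and on the right KO libraries lie at the low end and WT libraries at the high end.

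The remaining zinc genes gave 0 or 1 call in each list, in a fit that called 18.5% of all tested genes. Of 6 other Slc30 genes, 3 were tested and 0 were called by edgeR or DESeq2, with 0 at an unadjusted p under 0.05. Their lowest p-values were those of Slc30a4, an exporter into vesicles (−0.25, adjusted p = 0.178), and Slc30a9 (−0.07, adjusted p = 0.655). Of 10 other Slc39 genes, 6 were tested, 1 rose, 0 fell and 5 were not called (median log2 fold change −0.02). The rise was that of Slc39a11, an intracellular zinc transporter, from 8.95 to 15.5 CPM in WT to 18.3 to 25.3 CPM in KO, with no overlap. WT libraries averaged 12.8 ± 2.53 CPM (SD) and KO libraries 20.7 ± 3.17 CPM, and the log2 fold change was 0.75 ± 0.15 (SE; edgeR adjusted p = 0.00318). It was called under all 24 alternatives (adjusted p 0.000974 to 0.0479).

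Mtf1, which encodes the metal-sensing factor, was at 48.9, 48.6 and 46.0 CPM in WT and 55.2 and 63.3 CPM in KO in run 1. In run 3 it was at 46.1 and 46.1 CPM in WT and 50.2 and 60.9 CPM in KO. All KO libraries were above all WT libraries, and the log2 fold change of 0.29 ± 0.09 (SE) just passed the threshold in edgeR (adjusted p = 0.0434). The call was kept in 3 of 24 alternatives and lost without any single library other than KO replicate 3, with adjusted p of 0.0363 to 0.184 and a positive sign in all. Mt3 and Mt4, the brain and epithelial metallothioneins, were too low to test. Gpr39, a zinc-sensing receptor, and Tmem163, a zinc transporter, were not called.

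Lists for copper, which metallothioneins also bind, and for other inducers gave calls in both directions or none. Of 8 tested copper transport and chaperone genes 0 were called by edgeR or DESeq2, with 0 at an unadjusted p under 0.05. The lowest p-values were those of the chaperone Atox1 (−0.36, adjusted p = 0.182) and the pump Atp7a (−0.20, adjusted p = 0.199). Atp7a was called when WT replicates 2 and 5 were left out (−0.34, adjusted p = 0.0357). Of 9 tested genes induced by glucocorticoids, 1 rose, 3 fell and 5 were not called (median log2 fold change 0.01). Of all tested genes 9.56% were called higher and 8.96% lower. Klf9, a transcription factor, fell by 0.48 (adjusted p = 0.0042) and was called in all 24 alternatives. Fkbp5, a co-chaperone of the glucocorticoid receptor, fell by 0.32, and 7 of 24 alternatives ended that call, leaving out KO replicate 2 among them (−0.24, adjusted p = 0.0945). Tsc22d3 (−0.67) lost its call without WT replicates 3, 4 or 5 or KO replicates 1, 3 or 4, and in 9 of 24 alternatives in all. Per1, the gene that rose (0.34), lost its call in 22 of 24 alternatives, DESeq2 (adjusted p = 0.0731), limma-voom and every omission of a single library other than WT replicate 4 or KO replicate 3 among them. DESeq2 called 0 genes of this list higher and 3 lower.

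Of 10 tested antioxidant genes, 2 rose, 1 fell and 7 were not called (median log2 fold change 0.04). The shares over all tested genes were 9.56% higher and 8.96% lower. Gclc, the catalytic subunit of the first enzyme of glutathione synthesis, went from 30.6 ± 3.81 to 46.9 ± 8.60 CPM (log2 fold change 0.59, edgeR adjusted p = 0.00269) and was called in all 24 alternatives. Osgin1, a stress response gene, rose by 0.81, and 3 of 24 alternatives ended that call, leaving out KO replicate 1 among them (0.72, adjusted p = 0.0513). Gsr, glutathione reductase, fell by 0.32. That call was lost in 15 of 24 alternatives, among them leaving out WT replicate 1, 2 or 4 or KO replicate 1, 2 or 3. Their parts in the metallothionein values were not tested.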

How the data were processed

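RNA-seq was made in 9 libraries of mouse islets (5 WT, 4 KO) with a kit that marks strand and takes small amounts of total RNA, per the labels' protocols. Raw counts per gene symbol were deposited by the authors, 1 column per library, and FPKM values were deposited by the authors in a second table. The submitters' processing notes name FastQC, Bowtie2 2.2.4.0, Cuffdiff 2.2.1, edgeR and build mm10 without their roles, and the counter and its strand setting are not given in the sources used here.

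From the 24420 count rows, 27 symbols that a spreadsheet had turned into dates were left out (0.133% to 0.186% of counts). Counts were fitted in R 4.3.3 with edgeR 4.0.16 (TMM, filterByExpr by group, glmQLFit and glmQLFTest, with run and genotype as terms). Benjamini-Hochberg adjustment ran over all 12501 tested genes at a threshold of 0.05. The same genes were fitted within each run, for the difference of the genotype effect between runs, for the run term, and for Ogt f/f against Ogt f/+ controls. Single members were also tested by exact two-sided permutation of genotypes within runs (60 arrangements, smallest p 0.0167). Levels of different genes were compared only in FPKM. Likeness of pattern used run-centred log2 CPM (prior count 2) over genes whose log2 CPM averaged 4 or more. The script of the edgeR fit was run on simulated counts first. DESeq2 1.42.0, limma 3.58.1 (voom, and log2(FPKM + pseudocount) with pseudocounts of 1 and 0.1), other filters and scalings and omitted libraries were the alternatives.

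All members were named, with Ogt, and from each other zinc, copper, glucocorticoid, granule and antioxidant list up to 4 called genes with the lowest p, or up to 2 where none was called. The members and lists were chosen with earlier results of these data known.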

Additional observations from a re-analysis of the deposited data

How the results depend on the processing

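Over 24 alternatives Slc30a8 kept its direction (log2 fold change −0.73 to −0.57) and lost its call only without the run term, where 0 members were called lower. Leaving out single libraries gave 1 to 2 members lower over both runs, 0 to 3 lower within run 1 and 1 to 2 higher within run 3. DESeq2 and the fit without a filter called 1 member lower within run 1. The share of all tested genes called was not counted in the alternatives within runs, so their member counts lack that comparison. In the interaction test 2 members were called higher without WT replicate 3, the only omission tried there, among 6 genes called in all.

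Against 2315 genes called over both runs, 672 were called without the run term, 1538 with Ogt f/f controls alone, 1300 on FPKM with no filter, 1499 with the acinar covariate, 1488 without WT replicates 2 and 5, 1519 without WT replicate 2 and KO replicate 2, and 1595 to 2334 with single libraries left out. The omissions of pairs of libraries, the alpha covariate and the alternatives within runs and for the interaction were chosen after seeing the data.

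Of the 9 members that were not called, 5 changed sign in at least 1 alternative (Mt1, Mt2, Slc39a10, Slc39a14 and Slc30a7) and 4 did not, and the cause was not tested. Mt1 stood at 0.042 in limma-voom, at 0.0436 on log2(FPKM + 1) with and without the filter and at 0.0438 on log2(FPKM + 0.1), at 0.12 with the acinar or the alpha covariate, at 0.0893 without WT replicates 2 and 5, at 0.24 without WT replicate 2 and KO replicate 2, and between −0.21 and 0.15 with single libraries left out. Mt2 stood at −0.19 without the run term and between −0.0598 and 0.48 with single libraries left out. Slc39a10 stood at −0.0093 with the acinar covariate, at −0.11 and −0.12 in the same omissions of pairs, and between −0.0536 and 0.28 with single libraries left out. Slc39a14 stood at −0.12 with Ogt f/f controls alone and between −0.0458 and 0.12 with single libraries left out. Slc30a7 stood at −0.015 without WT replicates 2 and 5. Slc30a9, which is no member, stood at 0.0284 with Ogt f/f controls alone.

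No paired analysis was made, because the labels match no KO library to a WT library beyond their shared run. The labels give the libraries no replicate numbers, and the numbers used here only name them. Slc39a10 had 46 to 206 and Slc39a14 had 63 to 131 counts per library, while Mt1 and Mt2, with more counts, had the larger standard errors (0.26 and 0.34, against 0.21 and 0.15). Omitting a library of run 3, or a KO library of run 1, leaves a genotype with 1 library within that run.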
